A study of Mus musculus with 2 samples.

Results

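The genes described here encode the constant regions of mouse antibodies and the J chain. They are 9 of the 32285 genes in the count tables: the heavy chain genes *Ighm*, *Ighd*, *Ighg1*, *Ighg2b*, *Ighg2c*, *Ighg3* and *Igha*, the kappa light chain gene *Igkc*, and *Jchain*. All 9 were taken by name and all 9 were found in every table. The single-cell methods of the study describe pooled spleen cells of 4 to 5 C57BL/6 mice per genotype, sorted as live CD45+ cells 8 days after infection with lymphocytic choriomeningitis virus clone 13 (LCMV-cl13), a strain that persists in mice. PEP-WT mice carry the wild type *Ptpn22* allele, which encodes the tyrosine phosphatase PEP. PEP-619WW mice are homozygous for a CRISPR/Cas9 knock-in of the *Ptpn22* allele that corresponds to a human autoimmunity-associated allele, in every cell of the animal. Each genotype gave 1 library from 1 pool, and both groups were infected, so the genotype cannot be told apart from the pool or the library. The labels name the tissue as liver and the cells as Jurkat or as sorted from a tumor, whereas the protocol text and the methods of the study describe splenocytes. Each sample has 2 tables, the barcode totals that the methods state are those of the pair not used here, and whether the pair used came from the same mice and sort is not stated.

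A B cell first makes IgM and IgD from *Ighm* and *Ighd*, the first constant region genes after the variable region. Activated B cells can switch class: a deletion joins the variable region to a downstream gene, so that a cell then transcribes one of *Ighg3*, *Ighg1*, *Ighg2b*, *Ighg2c*, *Ighe* or *Igha*. Plasma cells, the antibody-secreting end stage, devote much of their transcription to 1 heavy chain, 1 light chain and the J chain, which links IgM and IgA units into polymers. IgG2c is the typical IgG class of C57BL/6 mice in viral infection and takes the place of IgG2a in this strain.

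On chromosome 12 of GRCm38, on the minus strand, the heavy chain genes follow each other from *Ighm* (113418558 to 113422730) and *Ighd* (113406604 to 113416324) to *Ighg3* (113356224 to 113361232), *Ighg1* (113325240 to 113330523), *Ighg2b* (113302965 to 113307933), *Ighg2c* (113285325 to 113288932) and *Igha* (113254830 to 113260236). *Igkc* lies on the plus strand of chromosome 6 (70726435 to 70726966) and *Jchain* on the minus strand of chromosome 5 (88519809 to 88527891). These positions are those of GENCODE M21 on the build of the tables. The annotation lists a secreted and a membrane form of each heavy chain. The counts are per gene, so secreted and membrane transcripts cannot be told apart here.

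The end of the secreted form bears on the J chain. The last 60 coding bases and the stop codon of each secreted transcript in GENCODE M21 follow, 5′ to 3′, with in-frame cysteine codons in capitals. They are shown because the tailpieces of IgM and IgA carry a cysteine codon just before the last codon, the residue through which they form polymers with the J chain, and the ends of IgD and the 4 IgG classes carry none. They lie on the minus strand, for example at chr12:113420867-113420929 for *Ighm* and chr12:113258768-113258830 for *Igha*.
Ighm: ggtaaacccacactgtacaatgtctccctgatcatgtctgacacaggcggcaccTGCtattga
Igha: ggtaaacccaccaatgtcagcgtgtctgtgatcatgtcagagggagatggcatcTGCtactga
Ighd: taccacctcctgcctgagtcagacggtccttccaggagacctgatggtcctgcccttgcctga
Ighg1: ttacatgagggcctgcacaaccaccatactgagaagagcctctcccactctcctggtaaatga
Ighg2b: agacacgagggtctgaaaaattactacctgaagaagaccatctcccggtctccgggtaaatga
Ighg2c: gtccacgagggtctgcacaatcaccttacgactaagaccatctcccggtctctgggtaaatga
Ighg3: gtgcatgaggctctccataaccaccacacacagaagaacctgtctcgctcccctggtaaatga

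The 4 IgG genes share the longest stretches of sequence among the heavy chain genes, and their hinges are shown because they differ in length and in cysteine codons. Exon 2 of each gene, the hinge, is given 5′ to 3′ from the minus strand of chromosome 12, with in-frame cysteine codons in capitals, since hinge cysteines form the bridges between the heavy chains. *Ighg1* (113329844 to 113329882) and *Ighg2b* (113307261 to 113307326) each have 4, *Ighg2c* (113288263 to 113288325) has 3 and *Ighg3* (113360529 to 113360576) has 1.
Ighg1: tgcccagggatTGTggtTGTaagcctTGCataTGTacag
Ighg2b: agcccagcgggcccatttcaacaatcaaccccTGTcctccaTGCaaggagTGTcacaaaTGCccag
Ighg2c: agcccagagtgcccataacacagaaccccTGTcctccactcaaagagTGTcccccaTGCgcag
Ighg3: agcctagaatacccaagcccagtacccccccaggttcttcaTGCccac
No exact window of 90 bases, the length of the cDNA read, was shared between any of the 7 heavy chain genes, *Ighe*, *Igkc* and the lambda genes *Iglc1*, *Iglc2* and *Iglc3* in the annotated transcripts. The longest shared run was 88 bases, between *Ighg2b* and *Ighg3*, and *Ighg2c* shared a run of 78 bases with *Ighg2b*. Reads with mismatches could still be assigned to the wrong IgG gene, and this was not tested.

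The main tables held 14821 barcodes and 77916082 UMIs (unique molecular identifiers, each 1 captured transcript) for PEP-WT, and 8576 barcodes and 56745578 UMIs for PEP-619WW. Barcodes were gated by marker UMIs. Plasma barcodes had at least 5 UMIs of *Mzb1*, a chaperone of the secretory pathway. B barcodes had *Cd79a* and *Ms4a1* above 0 and fewer than 5 *Mzb1* UMIs. T barcodes had *Cd3e* above 0 and *Cd79a* at 0, and served as the background, since T cells do not transcribe these genes productively. This gave 2361 plasma, 5515 B and 1754 T barcodes in PEP-WT, with median depths of 9899, 2460 and 4024.5 UMIs, and 1893, 2313 and 1057 in PEP-619WW, with 11400, 3048 and 6360 UMIs. The plasma gate took 15.9% of the barcodes in the first table (95% exact binomial interval 15.3 to 16.5%) and 22.1% in the second (21.2 to 23.0%). The 2 libraries shared 39 barcode sequences. Levels are given as CPM (the UMIs of a gene over all UMIs of the gate, on the counts-per-million scale). All intervals cover counting error only. With 1 library per genotype no test between genotypes was possible.

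The plasma gate was checked against the plasma cell markers. *Jchain* was found in 72.2% of the plasma barcodes of PEP-WT and 86.2% of those of PEP-619WW, and *Xbp1*, the transcription factor of the secretory program, in 68.1% and 76.7%. *Sdc1*, which encodes CD138, was found in 37.0% and 47.1%. The B cell gene *Ms4a1*, which plasma cells turn off, was found in 61.2% and 45.7%. The gate thus also holds B cell-like barcodes, and it is called by its rule here. Markers of other lineages were present and differed between the libraries: all 6 neutrophil markers had UMIs, at a summed level of 1067 CPM in PEP-WT and 2007 CPM in PEP-619WW, and all 6 erythroid markers summed to 1425 and 285 CPM. The T cell markers summed to 263 and 312 CPM. Beyond leaving out barcodes that carried such markers, as given below, the part of these transcripts in the results was not tested. *Siglech*, a marker of plasmacytoid dendritic cells, which also make *Mzb1*, was found in 0.805% and 0.211% of plasma barcodes, although its whole marker list summed to 928 and 775 CPM.

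*Igkc* and *Ighg2c* had the highest levels of the 9 genes in plasma barcodes of both genotypes. *Igkc*, the constant region of kappa light chains, stood at 122073 CPM in PEP-WT and 141330 CPM in PEP-619WW. *Ighg2c* stood at 25640 and 31601 CPM, ahead of every other heavy chain gene in both libraries. All immunoglobulin genes and *Jchain* made up 18.2% of the UMIs of PEP-WT plasma barcodes and 21.1% of those of PEP-619WW. Levels of different genes are compared directly because the 3′ assay counts 1 UMI per transcript whatever its length.

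**Figure D1:**
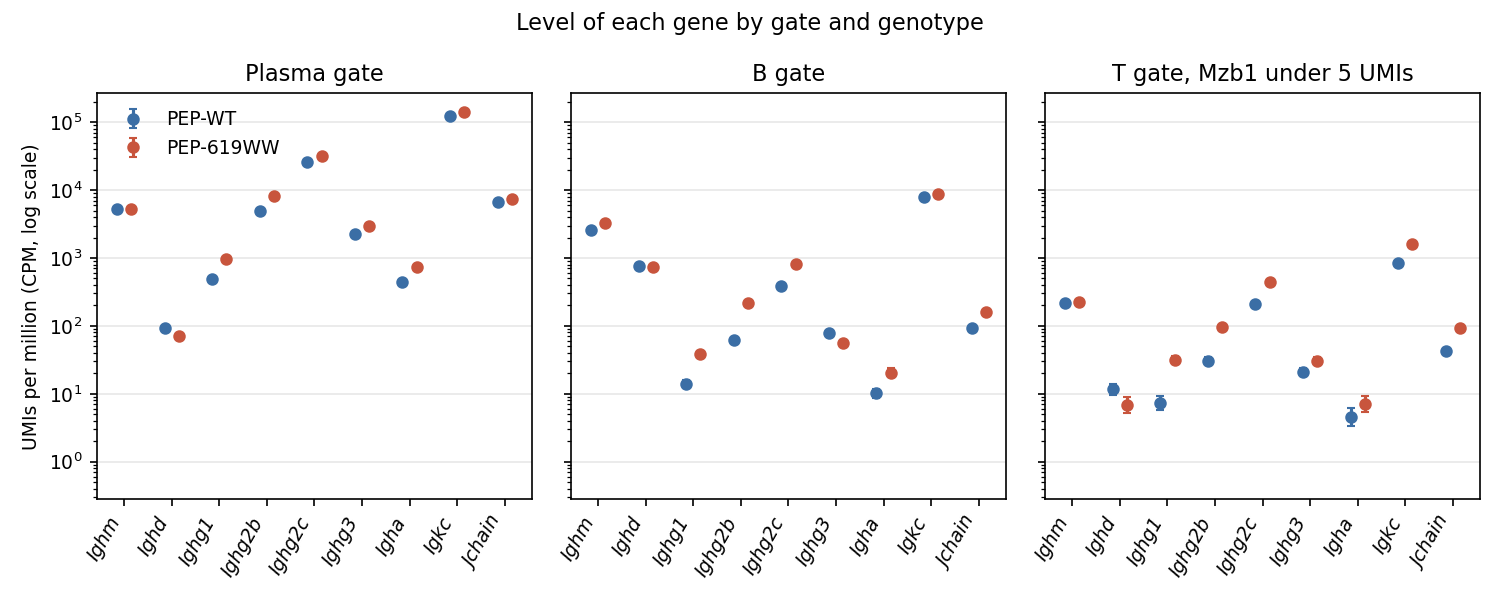
Level (CPM, log scale) of the 9 genes in plasma, B and T barcodes of PEP-WT and PEP-619WW; the T panel leaves out T barcodes with 5 or more Mzb1 UMIs. Points are library sums and bars are 95% exact Poisson intervals, mostly smaller than the points. Igkc and Ighg2c lead in plasma barcodes, at 122073 and 25640 CPM in PEP-WT, and Igkc and Ighm lead in B barcodes, at 7927 and 2548 CPM.

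Among the heavy chain genes of the gamma classes, *Ighg1* differed most between the libraries, at 483 CPM in PEP-WT and 979 CPM in PEP-619WW, a ratio of 2.03 (95% exact interval 1.99 to 2.07). *Ighg2b* stood at 4931 and 8049 CPM, a ratio of 1.63 (1.62 to 1.64). *Ighg3* stood at 2226 and 2916 CPM, a ratio of 1.31 (1.30 to 1.32), and *Ighg2c* had a ratio of 1.23 (1.229 to 1.236). All 4 gamma genes were thus higher in the PEP-619WW library in this gate, *Ighg1* and *Ighg2b* by more than 1.5-fold.

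*Igha*, which encodes the heavy chain of IgA, stood at 449 CPM in PEP-WT and 725 CPM in PEP-619WW, a ratio of 1.62 (1.58 to 1.65). *Ighm* stood at 5321 and 5204 CPM, a ratio of 0.978 (0.971 to 0.985). *Ighd* was the lowest of the 9 genes, at 94.2 and 71.0 CPM, a ratio of 0.754 (0.712 to 0.799). *Jchain* stood at 6702 and 7297 CPM, a ratio of 1.09 (1.08 to 1.10), and *Igkc* had a ratio of 1.16 (1.156 to 1.159).

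Of the 9 genes, 3 (*Ighg1*, *Ighg2b* and *Igha*) had a ratio past 1.5-fold higher in PEP-619WW plasma barcodes, where 3.43% of the 10680 genes with at least 100 UMIs were, and 0 were past 1.5-fold lower, against 3.44% of all genes tested. The median log2 ratio of the 9 genes was 0.30, beside -0.01 over all genes tested.

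These ratios depended on which barcodes the gate held. In the plasma barcodes that also had *Xbp1* above 0 and *Ms4a1* at 0 (874 in PEP-WT and 922 in PEP-619WW), *Ighg2c* stood at 44520 CPM in PEP-WT and 42578 CPM in PEP-619WW, a ratio of 0.956 (0.953 to 0.960). *Igha* had a ratio of 0.975 (0.951 to 0.999) there, and *Ighg2b* one of 1.19 (1.18 to 1.20). *Ighg1* stayed past 1.5-fold, at 573 and 1017 CPM, a ratio of 1.77 (1.72 to 1.83). *Ighm* was lower in PEP-619WW in this narrower set, at 6483 and 5482 CPM, a ratio of 0.846 (0.837 to 0.854), as was *Jchain*, at 10788 and 9165 CPM, a ratio of 0.850 (0.843 to 0.856), and *Igkc*, at 200996 and 186713 CPM, a ratio of 0.929 (0.927 to 0.931).

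The narrower set also held the exception among the *Ighd* barcodes. In PEP-619WW, 1 plasma barcode had 308 *Ighd* UMIs, which were 77.4% of its heavy chain UMIs, whereas the largest *Ighd* count of a PEP-WT plasma barcode was 16. *Ighd* in the narrower set stood at 8.37 CPM in PEP-WT and 30.2 CPM in PEP-619WW, a ratio of 3.61 (2.91 to 4.53). That barcode was in the set and held 308 of its 436 *Ighd* UMIs in PEP-619WW, so the ratio rests mostly on it. Both this barcode and the next were singled out after their values were seen. A similar single barcode was seen for *Ighe*, the gene of IgE, which is no member of the 9: PEP-WT plasma barcodes held 251 *Ighe* UMIs, of which 188 lay in 1 barcode, and PEP-619WW plasma barcodes held 29, at most 2 per barcode.

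Each plasma barcode was then assigned to the heavy chain gene with the most UMIs. In PEP-WT, *Ighm* was dominant in 1042 of 2361 barcodes (44.1%, 95% exact binomial interval 42.1 to 46.2%), *Ighg2c* in 945 (40.0%, 38.04 to 42.03%), *Ighg2b* in 164 (6.95%, 5.95 to 8.05%), *Ighg3* in 100 (4.24%), *Ighg1* in 42 (1.78%), *Igha* in 20 (0.847%) and *Ighd* in 18 (0.762%). In PEP-619WW, *Ighg2c* was dominant in 974 of 1893 barcodes (51.5%, 49.2 to 53.7%), *Ighm* in 522 (27.6%, 25.6 to 29.6%), *Ighg2b* in 241 (12.7%, 11.3 to 14.3%), *Ighg3* in 76 (4.01%), *Ighg1* in 40 (2.11%), *Igha* in 23 (1.22%) and *Ighd* in 4 (0.211%). Ties were 25 and 13 barcodes, and 5 PEP-WT barcodes had no heavy chain UMI. IgM was thus the commonest class in the PEP-WT gate and IgG2c in the PEP-619WW gate.

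The share dominated by *Ighm* was 16.6 percentage points lower in PEP-619WW (difference -16.6, 95% Newcombe interval -19.4 to -13.7). The share dominated by *Ighg2c* was 11.4 points higher (8.42 to 14.4) and that by *Ighg2b* 5.78 points higher (3.99 to 7.63). The differences for *Ighg1* (0.33 points, -0.50 to 1.22), *Ighg3* (-0.22, -1.41 to 1.01) and *Igha* (0.37, -0.24 to 1.04) were within counting error.

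The *Ighm* and *Ighg2c* differences were larger in barcodes that kept *Ms4a1*. Among plasma barcodes with *Ms4a1* above 0, *Ighm* was dominant in 63.3% in PEP-WT and 48.2% in PEP-619WW, and *Ighg2c* in 23.2% and 32.5%. Among those with *Ms4a1* at 0 and *Xbp1* above 0, *Ighg2c* was dominant in 68.9% in PEP-WT and 68.0% in PEP-619WW, a difference of -0.87 points (-5.16 to 3.43), and *Ighm* in 11.8% and 8.35%, a difference of -3.43 points (-6.25 to -0.65). *Ighg2b* was dominant in 10.2% and 14.8% of that set, a difference of 4.57 points (1.51 to 7.62). The *Ighg2b* share was therefore higher in the PEP-619WW library in both sets, beyond counting error, whereas the *Ighg2c* share was not.

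**Figure D2:**
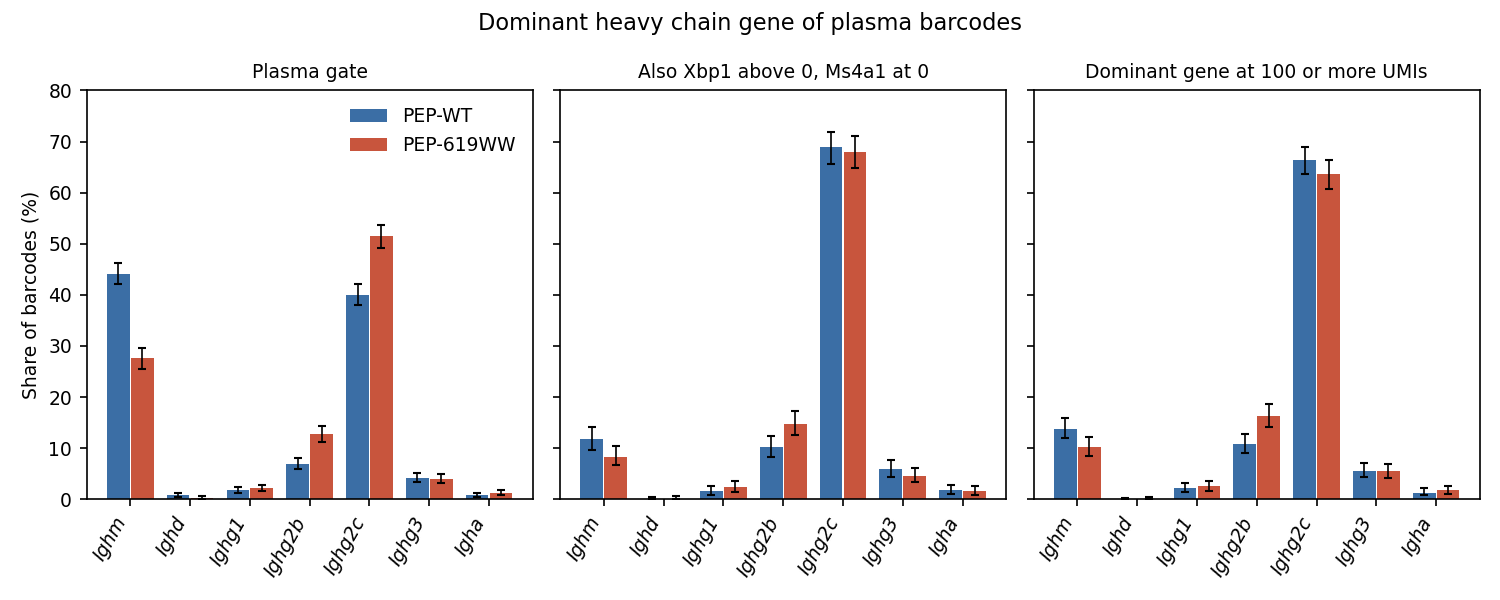
Share of plasma barcodes (%) in which each heavy chain gene has the most UMIs, for PEP-WT and PEP-619WW, in the plasma gate, in its barcodes with Xbp1 above 0 and Ms4a1 at 0, and in its barcodes whose dominant gene has 100 or more UMIs. Bars are shares with 95% exact binomial intervals. In the gate Ighm holds 44.1% and 27.6%, in the narrower sets Ighg2c leads in both genotypes, and Ighg2b is higher in PEP-619WW in all 3 panels.

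Within the 1251 PEP-WT and 1331 PEP-619WW barcodes dominated by a gamma gene, the classes were in a similar order. *Ighg2c* held 75.5% in PEP-WT and 73.2% in PEP-619WW, a difference of -2.36 points (-5.72 to 1.01). *Ighg2b* held 13.1% and 18.1%, a difference of 5.00 points (2.20 to 7.78), and *Ighg3* held 7.99% and 5.71%, a difference of -2.28 points (-4.27 to -0.33). With *Xbp1* above 0 and *Ms4a1* at 0 the *Ighg3* difference was -1.67 points (-4.07 to 0.66), within counting error, and that of *Ighg2b* was 4.67 points (1.23 to 8.08). *Ighg1* held 3.36% and 3.01%.

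**Figure D3:**
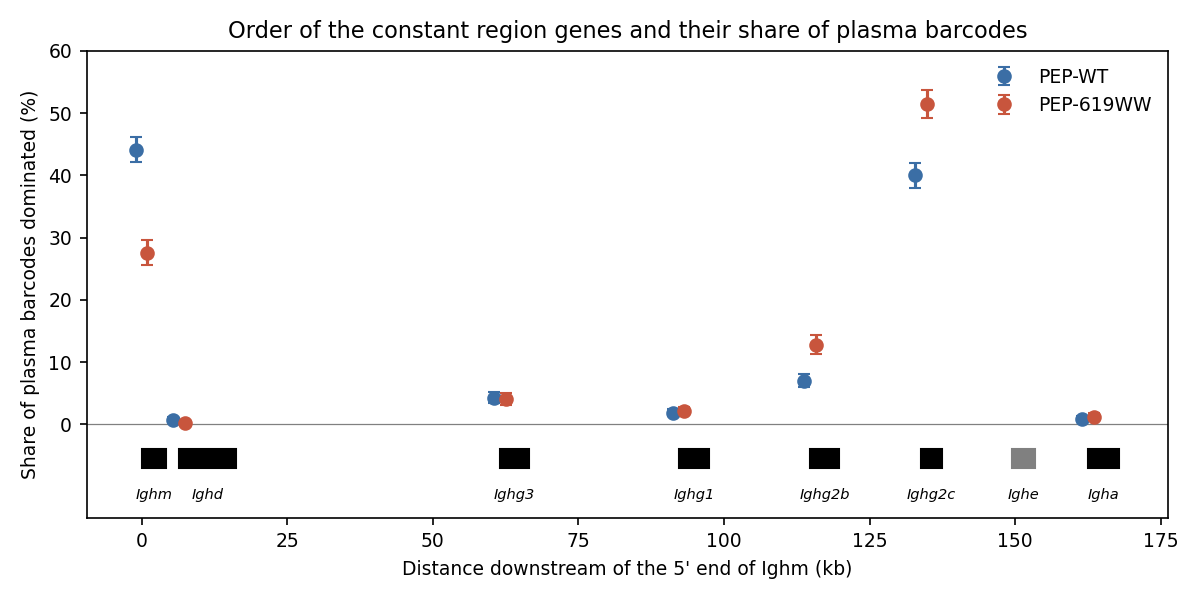
Position of the heavy chain constant region genes along their locus, as distance downstream of the 5′ end of Ighm in kb (boxes, with Ighe in grey), and the share of plasma barcodes that each of the 7 genes dominates in PEP-WT and PEP-619WW, with 95% exact binomial intervals. Ighm, at the start, and Ighg2c, 133.8 kb downstream, hold most barcodes, and Ighg3, the first gamma gene, at 61.5 kb, holds 4.24% and 4.01%.

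The amount of the dominant chain differed by class. Barcodes dominated by *Ighm* had a median of 20 *Ighm* UMIs in PEP-WT and 27 in PEP-619WW, and 170 of 1042 and 113 of 522 had 100 or more. Barcodes dominated by *Ighg2c* had medians of 745 and 737.5 *Ighg2c* UMIs, with 90th percentiles of 1516 and 1961, and 817 of 945 and 700 of 974 had 100 or more. The highest single counts were 4876 UMIs of *Ighg2c* in PEP-WT and 5049 in PEP-619WW. *Ighg2b* barcodes had medians of 851 and 674 *Ighg2b* UMIs, *Ighg3* barcodes 503.5 and 926.5, *Igha* barcodes 532.5 and 948, and *Ighg1* barcodes 203 and 424. Most IgM barcodes of the gate thus held under 100 UMIs of *Ighm*, and most IgG2c and IgG2b barcodes held more than 100 of their chain.

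**Figure D4:**
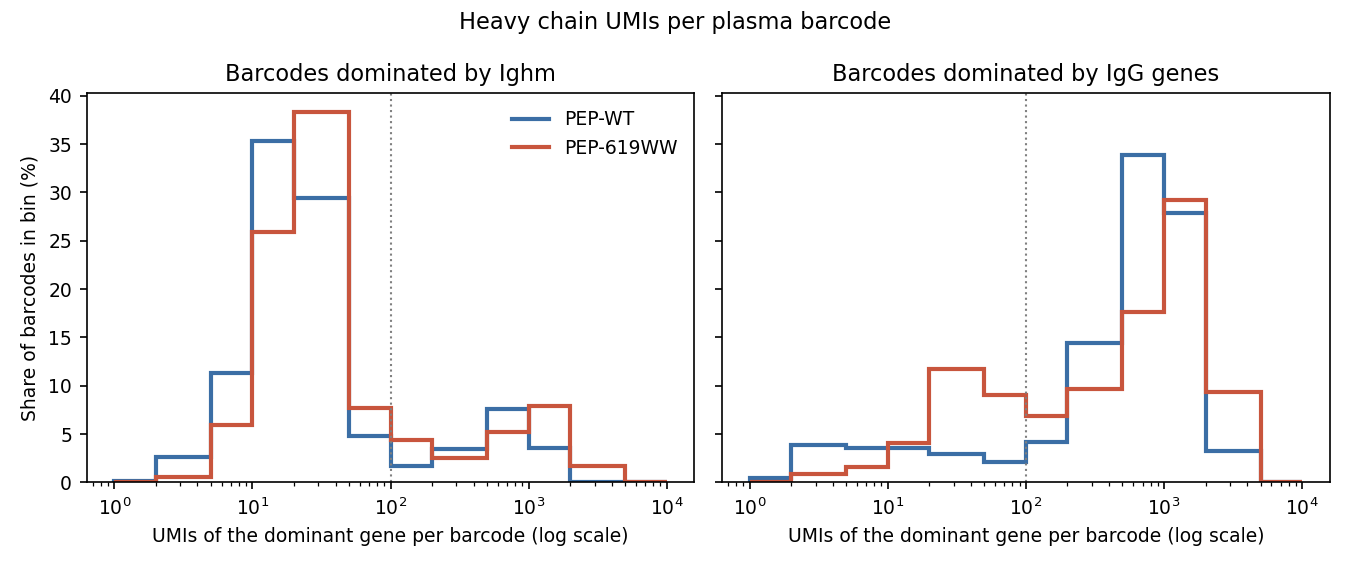
Share of plasma barcodes (%) by the UMIs of their dominant heavy chain gene (log scale, the bins drawn as steps), for barcodes dominated by Ighm and by the 4 IgG genes, in PEP-WT and PEP-619WW. The dotted line marks 100 UMIs. Most Ighm barcodes lie below it and most IgG barcodes above it, and PEP-619WW has more IgG barcodes between 20 and 100 UMIs.

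The barcodes under 100 UMIs differed in kind between the genes and the libraries. Of the 872 low *Ighm* barcodes of PEP-WT, 95.6% had *Ms4a1* UMIs and 31.4% had *Jchain* UMIs; of the 409 of PEP-619WW, 89.5% and 44.3% had. Low *Ighg2c* barcodes numbered 128 in PEP-WT, of which 78.9% had *Ms4a1* UMIs, and 274 in PEP-619WW, of which 27.4% had. The neutrophil gene *S100a8* was found in 19.5% of these in PEP-WT and 69.3% in PEP-619WW, and their median depths were 10669.5 and 2007.5 UMIs. The *Ighg2c* share difference was smaller without barcodes that carried markers of other lineages, as given below. Beyond such filters, the part of neutrophil transcripts and of shallow barcodes in the *Ighg2c* share of PEP-619WW was not tested.

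Counting only the barcodes whose dominant gene had 100 or more UMIs, 1231 in PEP-WT and 1101 in PEP-619WW, *Ighg2c* was dominant in 66.4% and 63.6%, a difference of -2.79 points (-6.66 to 1.08). *Ighm* was dominant in 13.8% and 10.3%, a difference of -3.55 points (-6.17 to -0.89), and *Ighg2b* in 10.8% and 16.3%, a difference of 5.54 points (2.77 to 8.35). This set was chosen after its values were seen. Its order, *Ighg2c* before *Ighm* and *Ighg2b*, with *Ighg2b* ahead of *Ighm* in PEP-619WW, was that of the *Xbp1* set.

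Just outside and inside the gate, the shares also differed between the libraries. Among barcodes with exactly 4 *Mzb1* UMIs, *Ighm* was dominant in 86.4% in PEP-WT and 59.5% in PEP-619WW, and *Ighg2c* in 5.26% and 29.6%. At exactly 5 UMIs the *Ighm* shares were 84.8% and 58.3%, and the *Ighg2c* shares 5.71% and 33.0%. The background T barcodes differed in the same direction: *Ighg2c* had the most heavy chain UMIs in 34.0% in PEP-WT and 50.2% in PEP-619WW, a difference of 16.3 points (12.50 to 19.97), and *Ighm* in 28.4% and 22.8%, a difference of -5.59 points (-8.84 to -2.25). With the T mean of each heavy chain gene subtracted from every plasma barcode, the *Ighm*, *Ighg2c* and *Ighg2b* share differences stayed within the intervals given above. The part of background transcripts in the plasma shares was not tested in any other way.

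In the whole gate, mixing of classes differed by the dominant gene. The dominant gene made up a median of 98.99% of the heavy chain UMIs in *Ighg2c* barcodes of PEP-WT and 97.7% in those of PEP-619WW, and 97.6% and 95.2% in *Ighg2b* barcodes. In *Ighm* barcodes it was 84.6% and 83.2%. *Ighg2c* exceeded 10% of the heavy chain UMIs in 22.1% and 28.5% of these barcodes, and *Ighd* in 32.0% and 26.8%. Their median *Ighg2c* count was 1 UMI in PEP-WT and 2 in PEP-619WW, beside medians of 20 and 27 *Ighm* UMIs. T barcodes with fewer than 5 *Mzb1* UMIs had the same *Ighg2c* medians. The part of background transcripts in this mixing was not tested. *Ighd*, which is spliced from the same transcript as *Ighm* in unswitched cells, was found in 58.6% and 59.0% of the *Ighm* barcodes and in 18.1% and 14.6% of the *Ighg2c* barcodes. The commonest second class of *Ighg2b* barcodes was *Ighg2c*. It exceeded 10% of their heavy chain UMIs in 15.9% of those in PEP-WT and 17.8% in PEP-619WW. With *Xbp1* above 0 and *Ms4a1* at 0, the median share of the dominant gene was 99.6% and 98.7% in *Ighm* barcodes. It was 99.5% and 98.3% in *Ighg2c* barcodes. The dominant gene still made up 80% or more in fewer *Ighm* barcodes, 84.5% and 79.2%, than *Ighg2c* barcodes, 96.5% and 91.4%. *Ighd* was found in 7.77% and 19.5% of the *Ighm* barcodes of that set.

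Of the UMIs of each gene in the gate, most came from the barcodes it dominated: 97.0% for *Ighg2c* in PEP-WT and 96.3% in PEP-619WW, 93.8% and 89.0% for *Ighg2b*, 94.4% and 90.7% for *Igha*, and 85.1% and 81.2% for *Ighm*. For *Igha*, 1% of the plasma barcodes held 97.6% of the UMIs in PEP-WT and 92.7% in PEP-619WW. The *Igha* ratio between the libraries therefore rests mostly on 20 and 23 barcodes. For *Ighg1*, 1% of the plasma barcodes held 82.9% of the UMIs in PEP-WT and 74.3% in PEP-619WW. The 42 and 40 barcodes it dominated held 79.3% and 77.7%. Its ratio therefore also rests mostly on few barcodes. *Ighd* was the exception, with 5.20% and 17.1% of its UMIs in barcodes it dominated.

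*Jchain* differed between the classes, in part differently in each library. Among plasma barcodes with *Xbp1* above 0 and *Ms4a1* at 0, those dominated by *Igha* had more *Jchain* than those of *Ighm* or any gamma gene in both libraries, at 19506 CPM in PEP-WT (95% exact Poisson interval 18998.5 to 20023, 15 barcodes) and 13963 CPM in PEP-619WW (13563 to 14373, 15 barcodes). *Ighm* barcodes stood at 12933 CPM (103 barcodes) and 11649 CPM (77 barcodes). *Ighg2c* barcodes stood at 10466 and 8974 CPM, *Ighg3* barcodes at 10098 and 8410 CPM, and *Ighg2b* barcodes at 9370 and 7927 CPM. *Ighg1* barcodes stood at 8234 CPM (14 barcodes) and 11957 CPM (22 barcodes), below the other gamma genes in PEP-WT. In PEP-619WW the *Ighg1* interval (11518 to 12409) overlapped that of *Ighm* (11452 to 11849). The 1 *Ighd* barcode of PEP-619WW stood at 17258 CPM, above *Igha*. By CPM, the IgA and IgM barcodes of this set held more *Jchain* than the IgG2b, IgG2c and IgG3 barcodes in both libraries. Their tailpieces carry the cysteine codon shown above, and the ends of IgG1 and IgD carry none. Any link of that codon to the *Jchain* level was not tested. The barcodes of the 4 IgG classes still held between 7927 and 11957 CPM. The median *Jchain* UMIs per barcode kept *Igha* highest of these classes, at 384 in PEP-WT and 360 in PEP-619WW. For *Ighm* the median was 149 in PEP-WT, above *Ighg2c* (122), *Ighg2b* (114) and *Ighg3* (100). In PEP-619WW it was 94, below *Ighg2c* (114), *Ighg2b* (116.5) and *Ighg3* (129). The *Ighg1* median was 96.5 in both libraries, below *Ighg2c*, *Ighg2b* and *Ighg3* in each. Its barcodes had median depths of 13874.5 UMIs in PEP-WT and 9385.5 in PEP-619WW. The places of IgM and IgG1 therefore depended on the measure in PEP-619WW.

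**Figure D5:**
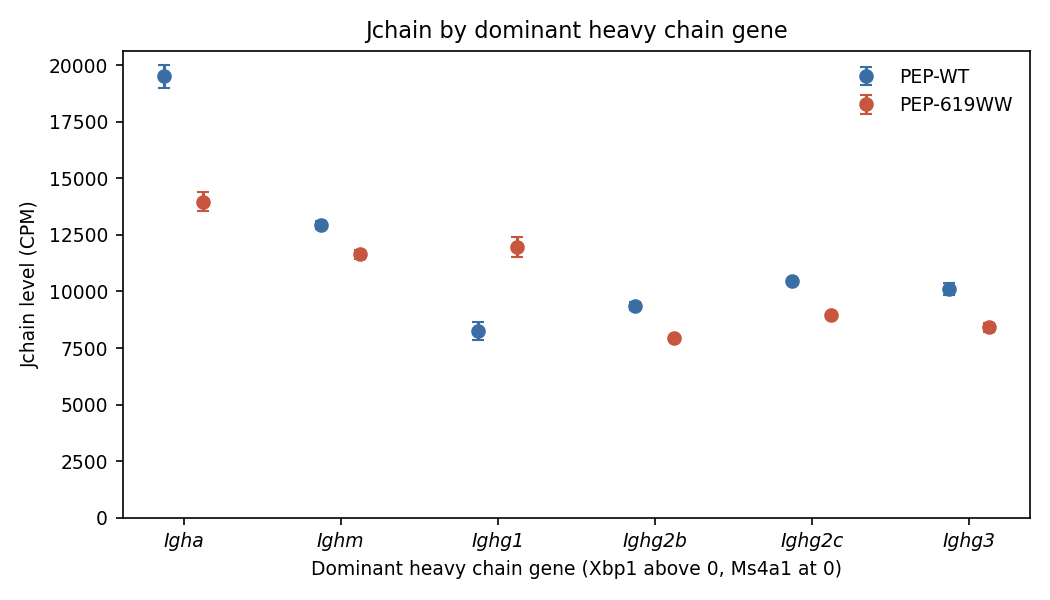
Jchain level (CPM) in plasma barcodes with Xbp1 above 0 and Ms4a1 at 0, by the dominant heavy chain gene, in PEP-WT and PEP-619WW. Points are sums over barcodes with 95% exact Poisson intervals. Of the 6 genes drawn, which leave out the 1 Ighd barcode of PEP-619WW, Igha is highest, at 19506 and 13963 CPM; Ighg2b, Ighg2c and Ighg3 lie between 7927 and 10466 CPM, and Ighg1 stands at 8234 and 11957 CPM, beside 12933 and 11649 CPM for Ighm.

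Relative to the heavy chain, *Igha* barcodes of that set held 0.488 *Jchain* UMIs per *Igha* UMI in PEP-WT and 0.376 in PEP-619WW, and *Ighm* barcodes 0.260 and 0.206 per *Ighm* UMI. *Ighg1* barcodes held 0.316 and 0.234, above *Ighm* in both libraries. *Ighg2c* barcodes held 0.167 and 0.146, *Ighg3* barcodes 0.157 and 0.141 and *Ighg2b* barcodes 0.119 and 0.136. This ratio was higher in PEP-WT for *Igha*, *Ighm*, *Ighg1*, *Ighg2c* and *Ighg3* and higher in PEP-619WW for *Ighg2b*. In the whole gate, *Ighm* barcodes held 3308 and 4126 CPM of *Jchain*, with *Jchain* UMIs in 42.3% and 55.9% of them, against 98.2% and 97.8% of the *Ighg2c* barcodes. The *Jchain* level there was 8609 and 8286 CPM in *Ighg2c* barcodes, 7822 and 6994 CPM in *Ighg2b* barcodes and 6833 and 7475 CPM in *Ighg3* barcodes. The order by CPM of *Ighm* and these 3 classes was thus turned in the whole gate, with *Ighm* the lower in both libraries.

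Light chains were mostly kappa. Summing *Iglc1*, *Iglc2* and *Iglc3* as lambda, lambda UMIs exceeded *Igkc* UMIs in 197 of 2361 plasma barcodes in the PEP-WT library (8.34%, 7.26 to 9.53%) and in 116 of 1893 plasma barcodes from PEP-619WW mice (6.13%, 5.09 to 7.30%), a difference of -2.22 points (-3.76 to -0.64). The share was higher in *Ighm* barcodes, at 12.7% (10.7 to 14.8%) and 14.0% (11.1 to 17.3%), than in *Ighg2c* barcodes, at 4.76% (3.49 to 6.32%) and 2.46% (1.59 to 3.64%). With *Xbp1* above 0 and *Ms4a1* at 0, the intervals overlapped: the share was 6.80% (2.78 to 13.5%) and 6.49% (2.14 to 14.5%) in *Ighm* barcodes and 4.98% (3.39 to 7.04%) and 2.07% (1.11 to 3.52%) in *Ighg2c* barcodes. *Iglc1* in plasma barcodes stood at 7065 CPM in PEP-WT and 5092 CPM in PEP-619WW, a ratio of 0.721 (0.716 to 0.725), and 1% of the barcodes held 55.9% and 55.01% of its UMIs. With *Xbp1* above 0 and *Ms4a1* at 0 it stood at 13745 and 5297 CPM, a ratio of 0.385 (0.382 to 0.389). In B barcodes lambda exceeded kappa in 9.90% and 7.74%.

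B barcodes were led by *Ighm* and *Igkc*. *Ighm* stood at 2548 CPM in PEP-WT and 3280 CPM in PEP-619WW, a ratio of 1.29 (1.27 to 1.31), with medians of 7 and 11 UMIs per barcode. *Igkc* stood at 7927 and 8823 CPM, a ratio of 1.11 (1.10 to 1.12). *Ighd*, at 750 and 741 CPM, had a ratio of 0.988 (0.959 to 1.018). *Ighm* was found in 97.8% of B barcodes of PEP-WT and 98.0% of those of PEP-619WW, against 56.0% and 65.6% of T barcodes, and *Ighd* in 79.8% and 80.3%, against 6.1% and 4.73% of T barcodes. At an equal depth of 1000 UMIs per barcode, *Ighm* was found in 89.2% and 91.7% of B barcodes and in 19.8% and 23.1% of T barcodes. Thinning left out 92 and 64 B barcodes and 38 and 34 T barcodes below that depth.

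*Ighm* was the dominant heavy chain gene of 4684 of 5515 B barcodes in PEP-WT (84.9%, 84.0 to 85.9%) and 2009 of 2313 in PEP-619WW (86.9%, 85.4 to 88.2%). *Ighd* was dominant in 311 (5.64%) and 53 (2.29%), a difference of -3.35 points (-4.18 to -2.44). *Ighd* and *Ighm* are alternative products of 1 transcript, and the summed ratio of *Ighm* to *Ighd* UMIs was 3.40 in PEP-WT and 4.42 in PEP-619WW. The ratio was 2.71 and 3.45 in follicular-gated B barcodes (*Fcer2a* above 0, with *Cd9* and *Dtx1* at 0) and 4.86 and 5.69 in marginal zone-gated ones (*Fcer2a* at 0 and at least 2 of 6 marginal zone markers). It was thus higher in PEP-619WW in both subsets as well as over all B barcodes. These subsets held 835 and 237, and 805 and 222, barcodes.

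Per barcode, *Ighg2b* and *Ighg2c* in B barcodes had means near those of T barcodes, which were deeper. Each B barcode held a mean of 1.26 *Ighg2c* UMIs in PEP-WT and each T barcode with fewer than 5 *Mzb1* UMIs held 1.23; in PEP-619WW the means were 3.13 and 3.54. For *Ighg2b* the means were 0.203 in B and 0.180 in T barcodes of PEP-WT, and 0.812 and 0.751 in PEP-619WW. *Ighg1* stood at 0.0453 and 0.0434 in PEP-WT and at 0.147 and 0.249 in PEP-619WW, where 1 T barcode held 117 of 252 UMIs. *Ighg2c* was found in 57.7% and 79.9% of B barcodes and in 64.5% and 84.7% of T barcodes, at or below the background. Thinned to 1000 UMIs, the shares were 29.98% and 44.6% of B barcodes and 25.3% and 32.8% of T barcodes, and as CPM *Ighg2c* stood at 387 and 828 in B barcodes and at 210 and 450 in T barcodes with fewer than 5 *Mzb1* UMIs. Whether B barcodes held *Ighg2c* above the background therefore depended on the scale and is not decided here. *Ighg3* in PEP-WT was 2.04-fold higher per barcode in B than in T barcodes, and 1 B barcode held 307 of its 1392 UMIs. In PEP-619WW the *Ighg3* mean in B barcodes was 0.878 of that in T barcodes. *Ighm* was 6.60-fold and 6.98-fold, and *Ighd* 36.2-fold and 51.5-fold, higher per barcode in B than in T barcodes.

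Of the 9 genes, 5 (*Ighg1*, *Ighg2b*, *Ighg2c*, *Igha* and *Jchain*) were past 1.5-fold higher in PEP-619WW B barcodes, against 4.70% of 9697 genes, and 0 were past 1.5-fold lower, against 2.49%. The ratios were 2.80 for *Ighg1* (2.37 to 3.31), 3.45 for *Ighg2b* (3.20 to 3.72), 2.14 for *Ighg2c* (2.07 to 2.21), 1.99 for *Igha* (1.61 to 2.46) and 1.73 for *Jchain* (1.61 to 1.86). In the T barcodes with fewer than 5 *Mzb1* UMIs the same 5 genes had ratios of 4.26, 3.09, 2.14, 1.57 and 2.13. For *Ighg1*, 1 PEP-619WW barcode held 117 of the 252 UMIs behind the first of these. The difference in these genes between the libraries was therefore present in the background as well. *Ighg3* was lower in PEP-619WW B barcodes, at 77.3 and 56.6 CPM, a ratio of 0.731 (0.659 to 0.811), and 1% of the PEP-WT B barcodes held 59.5% of its UMIs there.

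Few B barcodes were dominated by a gamma gene, and in both libraries most of them held under 100 UMIs of it. Of those dominated by *Ighg2c*, 5 of 120 in PEP-WT and 4 of 139 in PEP-619WW held 100 or more. *Ighg2c* was dominant in 120 PEP-WT B barcodes (2.18%, 1.81 to 2.60%) and 139 PEP-619WW ones (6.01%, 5.08 to 7.06%), with medians of 4 and 12 *Ighg2c* UMIs and highest counts of 388 and 200. *Ighg2b* was dominant in 19 (0.345%) and 31 (1.34%). Of the *Ighg2c*-dominant B barcodes, 43.3% had *Jchain* UMIs in PEP-WT and 75.5% had them in PEP-619WW, against 18.4% and 28.7% of the *Ighm*-dominant ones. Background T barcodes with fewer than 5 *Mzb1* UMIs had them in 20.2% and 36.7%. The part of background transcripts in these shares was not tested.

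In T barcodes by the gate alone, 3 of the 9 genes (*Ighg1*, *Ighg3* and *Igha*) were past 1.5-fold higher in PEP-619WW, against 2.66% of 9225 genes, and 2 (*Ighd* and *Ighg2b*) past 1.5-fold lower, against 2.06%. The gate took in 25 barcodes of the PEP-WT library and 46 of the other with 5 or more *Mzb1* UMIs, which carried most of its *Igkc* UMIs. *Igkc* fell from 4840 to 841 CPM in PEP-WT when they were left out, and from 6212 to 1620 CPM in PEP-619WW. *Ighg2b* fell from 267 to 30.9 CPM in PEP-WT and from 146 to 95.4 CPM in PEP-619WW, which turned its ratio from 0.547 to 3.09. The *Ighg3* ratio went from 5.11 to 1.46, no longer past 1.5-fold, and 1 PEP-619WW barcode held 687 of the 1071 *Ighg3* UMIs of the gate. Left without them, T barcodes held a mean of 4.91 and 12.7 *Igkc* UMIs each, 0.314% and 0.617% of the plasma mean. The background was thus higher in the PEP-619WW library for *Igkc* and for all 4 gamma genes.

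Genes that act in switching and secretion were described by counts, to be read beside all genes tested, of which 3.43% were past 1.5-fold higher and 3.44% lower in plasma barcodes, 4.70% and 2.49% in B barcodes and 2.66% and 2.06% in T barcodes. Of 20 genes for the enzymes of class switching and the DNA repair that completes it, 0 were past 1.5-fold higher in PEP-619WW plasma barcodes. *Apex1*, a DNA repair endonuclease, was past 1.5-fold lower there, at 37.7 and 20.05 CPM. Of the 17 tested in B barcodes, 2 were lower, *Ung* (11.3 and 7.21 CPM), which removes uracils from DNA, and *Apex1* (43.2 and 27.2 CPM). Of 12 receptors and factors that direct switching, 0 were past 1.5-fold higher in plasma barcodes. *Cd40*, the receptor for T cell help, was past 1.5-fold lower, at 19.4 and 9.28 CPM, as was *Ifngr2*, a subunit of the interferon gamma receptor, at 18.4 and 11.2 CPM. In B barcodes, 0 of the 12 were past 1.5-fold. The median log2 ratio in plasma barcodes was -0.20 for the first list and -0.17 for the second. In B barcodes the medians were 0.08 and -0.01. *Ms4a1* was found in 61.2% of PEP-WT and 45.7% of PEP-619WW plasma barcodes, so the gates differed in their B cell-like part. Its share in the plasma ratios of these lists was not tested.

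Of 20 secretion factors, 2 were past 1.5-fold higher in plasma barcodes, against 3.43% of all genes tested, *Sdc1* at 68.0 and 104 CPM and *Herpud1*, a component of protein quality control in the endoplasmic reticulum, at 281 and 428 CPM. In B barcodes *Derl3* was higher, at 5.33 and 10.1 CPM, and the chaperone genes *Hspa5* (285 and 186 CPM) and *Sdf2l1* (45.7 and 30.5 CPM) were lower. Of 7 genes of the B cell receptor complex and coreceptor, *Cr2*, the complement receptor CD21, was lower in plasma barcodes (48.0 and 10.8 CPM) and in B barcodes (193 and 63.1 CPM), and *Ms4a1* in plasma barcodes (308 and 168 CPM). Of the 4 other constant region genes tested in plasma barcodes, *Ighe* was lower. The median log2 ratio in plasma barcodes was 0.14 for the secretion factors and -0.48 for the receptor genes. In B barcodes it was 0.10 and -0.05. The part of the B cell-like barcodes of the plasma gate in its values was not tested here either. In T barcodes, 0 of 17 switching enzymes, 0 of 18 secretion factors and 0 of 3 receptor genes were past 1.5-fold, and *Ifngr2* was the 1 lower of 11 directing genes.

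The genes that went with a class were compared within each library, in plasma barcodes, over 9161 genes outside the immunoglobulins with at least 100 UMIs in each library. Barcodes dominated by *Ighm* had more *Cr2* than the rest (132 and 10.4 CPM in PEP-WT, 45.3 and 2.81 CPM in PEP-619WW), more *Fcrl5*, an Fc receptor-like protein of B cells (27.4 and 2.49 CPM, 25.4 and 1.60 CPM), and more *Ccr6*, a chemokine receptor (35.3 and 4.60 CPM, 26.0 and 3.12 CPM). They had less *Slpi*, a secreted protease inhibitor (590.1 and 3836 CPM in PEP-WT, 610.1 and 3406 CPM in PEP-619WW), *Tmem176a* and *Tmem176b*. Since 87.9% and 79.9% of the *Ighm* barcodes had *Ms4a1* UMIs, this contrast is also one between B cell-like and plasma cell-like barcodes.

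Barcodes dominated by *Ighg2c* had more *Nrgn* (27.6 and 10.6 CPM in PEP-WT, 11.9 and 5.31 CPM in PEP-619WW), *Slpi* (4160 and 1437 CPM, 3691 and 1824 CPM) and the granule protease gene *Prtn3*, and less *Cr2*, *Fcrl5* and *Ccr6*. The barcodes they were compared with included the 1042 and 522 dominated by *Ighm*. The *Slpi*, *Cr2*, *Fcrl5* and *Ccr6* differences are therefore in part the *Ighm* contrast seen from the other side. This limit also applies to *Cr2* and *Fcrl5* in *Ighg2b* barcodes. For the rarer classes the same rule named *Ccdc15*, *Timp2* and *Exog* as higher and *Elane*, *Cr2* and *Fcrl5* as lower in *Ighg2b* barcodes, each of the higher ones at under 9 CPM. In *Ighg1* barcodes it named *Bcat1*, *Gm8879* and *Irak1bp1* as higher and *Camp*, *Car1* and *Ngp* as lower, and in *Ighg3* barcodes *Camp*, *Gpx3* and *Usp2* as higher and *Zfp831*, *Xcl1* and *Il12a* as lower. Most of these names rest on few UMIs. In *Ighg1* barcodes the higher genes had 8 to 20 UMIs per library, *Camp* had 2 and 4, *Car1* 1 and 0 and *Ngp* 3 and 5. In *Ighg3* barcodes the lower genes had 0 to 2 UMIs per library, and *Gpx3* and *Usp2* 10 to 17, whereas *Camp* had 275 and 452. In *Ighg2b* barcodes the higher genes had 17 to 31 UMIs per library and the lower ones 1 to 21. *Camp*, *Ngp*, *Elane* and *Prtn3* are genes of neutrophils and their precursors. These rankings compare barcodes of 1 pool and carry no test.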

How the data were processed

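The authors sequenced 3′ v3.1 libraries and made the deposited tables, whole UMI counts per gene and barcode, with Cell Ranger on mm10. The submitters' processing notes give version 6.0.0, and the methods another. Each sample has 2 tables. The pair with plasma cells was used, and the other pair, whose barcode totals are those the methods state, was kept apart. The sources do not say how the pairs relate. From the counts, UMIs were summed per gate and divided by all UMIs of the gate. Intervals (95%) were exact Poisson for levels, exact conditional for ratios, exact binomial for shares and Newcombe for differences, and cover counting error only. No depth filter and no doublet caller were applied. Of 32285 identifiers, 32158 matched a gene symbol.

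The members and gene lists were chosen with earlier results of these data known. All 9 members are named. Of the other lists, at most 4 genes past 1.5-fold were named, by UMI sum; some results for these lists are not reported here. For each heavy chain gene dominant in at least 30 barcodes per library, the 3 genes highest and 3 lowest against other plasma barcodes in both libraries were named. Fold calls were tested on simulated data. Calculations used pandas 2.3.3 and scipy 1.17.1 with numpy 2.4.6 under python 3.11.15.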

Additional observations from a re-analysis of the deposited data

Results flagged for a closer look

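By the gates as set, *Ighm* and *Ighg3* differed in opposite directions in plasma and B barcodes, and neither contrast held under every alternative. The log2 ratio of PEP-619WW to PEP-WT was -0.032 for *Ighm* in plasma barcodes and 0.36 in B barcodes, and 0.39 for *Ighg3* in plasma barcodes and -0.45 in B barcodes. Each interval lay on 1 side of 0, with 1 library per genotype, and the difference between the gates was not tested. Over the alternatives the *Ighm* log2 ratio ran from -0.24 to 0.16 in plasma barcodes and from 0.33 to 0.60 in B barcodes. That of *Ighg3* ran from -0.0096 to 0.58 in plasma barcodes and from -0.53 to 0.78 in B barcodes, so that both signs were seen for *Ighm* in plasma barcodes and for *Ighg3* in both gates. In PEP-WT, 1 B barcode held 307 of the 1392 *Ighg3* UMIs.

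The second pair of tables, which no comparison of the report uses, held very few plasma barcodes: 0 in PEP-WT, which allows a share of up to 0.0387%, and 15 in PEP-619WW. Several members were nevertheless above the level of the PEP-WT table of the same pair. In the PEP-619WW table *Ighm* stood at 188 CPM, *Ighd* at 36.0 CPM, *Igha* at 42.1 CPM, *Igkc* at 599.5 CPM and *Jchain* at 27.3 CPM. In the PEP-WT table they stood at 26.3, 0.0993, 0, 0.681 and 0.0142 CPM. Of the *Igha* UMIs of the PEP-619WW table, 2308 of 2335 lay in 2 plasma barcodes, which also held 20335 *Igkc* and 1505 *Jchain* UMIs. The other 13 plasma barcodes were dominated by *Ighm* with 94 *Ighm* UMIs in all, and 9 of them had UMIs of *Siglech*, a plasmacytoid dendritic cell marker. The table held 500 B barcodes, of which 419 were dominated by *Ighm* and 0 by a gamma gene. *Ighg2c* had 1 UMI in that table and 0 in the PEP-WT table.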

How the results depend on the processing

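*Ighg1* was past 1.5-fold higher in PEP-619WW plasma barcodes under all 13 alternatives, and *Ighg2b* under 8 of them, with log2 ratios from 0.22 to 0.92. The *Ighg2b* share kept its direction under all 13, from 3.76 (*Ms4a1* at 0) to 6.29 points, beside 5.78. The *Ighm* share kept its direction too, beside -16.6 points: it was -8.48 at 10 or more *Mzb1* UMIs, -3.43 with *Xbp1* above 0 and *Ms4a1* at 0, -9.67 without barcodes that carried markers of other lineages, -3.56 with *Ms4a1* at 0, -7.96 with *Jchain* above 0, -13.3 thinned to 1000 UMIs and -3.55 at 100 or more UMIs of the dominant gene. The *Ighg2c* share, 11.4 points, was 15.9 at 3 or more *Mzb1* UMIs, 2.39 at 10 or more, 7.80 without other lineages, 0.86 with *Ms4a1* at 0 and 4.00 with *Jchain* above 0, and it turned to -0.87 with *Xbp1* above 0 and *Ms4a1* at 0 and to -2.79 at 100 or more UMIs. The *Ighd* share, -0.55 points, turned to 0.014, 0.11, 0.0053 and 0.091 at 10 or more *Mzb1* UMIs, with *Xbp1* above 0 and *Ms4a1* at 0, with *Jchain* above 0 and at 100 or more UMIs. The *Igha* log2 ratio, 0.69 in plasma barcodes, turned to -0.037 with *Xbp1* above 0 and *Ms4a1* at 0, -0.12 without other lineages and -0.050 with *Ms4a1* at 0. The cause was not tested. The number of the 9 genes past 1.5-fold in plasma barcodes, 3, was 1 with *Jchain* above 0 and 2 or 3 under the other alternatives. The 2 with *Xbp1* above 0 and *Ms4a1* at 0 were *Ighg1* and *Ighd*. For *Ighd*, 1 barcode held 308 of the 436 UMIs of PEP-619WW there. *Igha* stayed past 1.5-fold under 9 of 13. In B barcodes the number was 5, and 3 without other lineages. It was 2 after the T mean was subtracted and 3 after the mean of T barcodes under 5 *Mzb1* UMIs was subtracted. A member whose mean was then at or below 0 has no value. The alternatives with *Ms4a1* at 0 alone, *Jchain* above 0, T barcodes under 5 *Mzb1* UMIs and 100 or more UMIs were chosen after seeing the data. The second pair of tables could give no value, with 0 plasma and 2 B barcodes in PEP-WT. No paired analysis was possible because each genotype has 1 library and no test was run. Rare classes rest on few barcodes, *Ighd* on 18 and 4, *Igha* on 20 and 23 and *Ighg1* on 42 and 40.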

Other observations

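In the PEP-WT table of the second pair, *Ighm* UMIs outnumbered light chain UMIs. There were 1855 *Ighm* UMIs in 1069 of 9539 barcodes (11.2%), of which 2 passed the B gate, whereas *Igkc* had 48 UMIs in 15 barcodes and *Iglc1*, *Iglc2* and *Iglc3* had 13, 6 and 17 UMIs. The 2 B barcodes held 5 *Ighm*, 6 *Igkc*, 13 *Iglc1* and 3 *Iglc2* UMIs. In the PEP-619WW table of that pair, *Ighm* was found in 3154 of 11029 barcodes (28.6%) and *Igkc* in 1248 (11.3%). No comparison was made between the pairs.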
